A study of Mus musculus with 4 samples.

Results

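The suppressors of cytokine signalling (SOCS) family was followed in mouse osteoclast cultures treated with BMS-582949, which inhibits the kinase p38α. Its members were taken by symbol, as the gene models whose Ensembl identifiers carry the names Socs1 to Socs7 and Cish, and all 8 were found among the 23390 gene models of the count table. RNA was sequenced from 2 libraries with 10 µM BMS-582949 and 2 libraries with the solvent DMSO. All 4 came from wild-type C57BL/6J bone marrow grown for 3 days in medium conditioned by L929 fibroblasts, a source of M-CSF equivalent to 20 ng/ml of the recombinant cytokine, and then given 40 ng/ml RANKL to drive macrophages into osteoclasts. RNA was extracted at day 4. The labels differ on whether the compound was present for 3 or 4 days. Nothing in them ties the libraries of 1 group to different mice or dishes, and the p-values therefore describe variation among these samples that may be technical.

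SOCS proteins are feedback inhibitors of cytokine receptors. Receptors that signal through JAK kinases and STAT transcription factors switch on SOCS genes, and the proteins then bind phosphorylated receptor or kinase through an SH2 domain and recruit a cullin-based ubiquitin ligase through a C-terminal motif, the SOCS box. SOCS1 and SOCS3 also block JAK catalytic activity directly, CIS (encoded by Cish) and SOCS2 act mainly on STAT5 signalling by growth hormone and haematopoietic cytokines, and SOCS4 to SOCS7 act largely on receptor tyrosine kinases and insulin signalling. In osteoclast precursors, SOCS1 and SOCS3 are known for blunting cytokines such as interferons that restrain osteoclast formation.

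With BMS-582949, Socs3 and Socs1, which encode the direct JAK inhibitors, were higher, Socs2 was lower, and the level of Cish was lower without passing the test. Socs4 and Socs5 rose by smaller amounts, and Socs6 and Socs7 were not called. Thus 4 members rose, 1 fell and 3 were not called at an adjusted p under 0.05 (Benjamini-Hochberg over 13214 genes, quasi-likelihood test of edgeR). Of all genes tested, 30.5% were called higher and 29.7% lower, 60.2% in all. The 5 of 8 members called is near that background and is no result about the family as a group. Without BMS-582949 replicate 2 only 2 members, Socs3 and Socs5, were called higher, and without DMSO replicate 1 Socs7 joined Socs2 as called lower. Every member passed the low-count filter.

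The promoters of the JAK-inhibiting members and of Cish are shown because they carry the letters to which cytokine-driven factors are known to bind. Windows of 250 bases before to 50 bases after the start site were in the RefSeq table (build GRCm38.p6) for 4 of the 8 members, Socs1, Socs3, Socs4 and Cish. Capitals mark matches to TTCNNNGAA, the palindromic element of STAT dimers, or to an element of interferon regulatory factors (GAAA, any 2 bases, then GAAA), searched on both strands. Each sequence runs 5′ to 3′ on the gene's own strand.
Socs3 (chr11:117969317-117969616, minus strand): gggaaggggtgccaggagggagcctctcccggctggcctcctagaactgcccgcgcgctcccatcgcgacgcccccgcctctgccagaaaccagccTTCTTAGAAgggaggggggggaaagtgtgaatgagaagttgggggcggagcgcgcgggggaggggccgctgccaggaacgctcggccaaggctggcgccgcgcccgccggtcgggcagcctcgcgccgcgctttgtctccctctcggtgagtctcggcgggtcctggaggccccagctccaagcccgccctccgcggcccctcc
Socs1 (chr16:10785487-10785786, minus strand): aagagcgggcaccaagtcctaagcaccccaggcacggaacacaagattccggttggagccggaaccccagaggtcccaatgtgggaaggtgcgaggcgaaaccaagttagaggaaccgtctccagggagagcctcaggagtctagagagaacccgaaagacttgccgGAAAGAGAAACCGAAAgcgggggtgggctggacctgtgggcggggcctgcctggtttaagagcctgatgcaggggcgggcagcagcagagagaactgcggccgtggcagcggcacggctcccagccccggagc
Cish (chr9:107296409-107296708, plus strand): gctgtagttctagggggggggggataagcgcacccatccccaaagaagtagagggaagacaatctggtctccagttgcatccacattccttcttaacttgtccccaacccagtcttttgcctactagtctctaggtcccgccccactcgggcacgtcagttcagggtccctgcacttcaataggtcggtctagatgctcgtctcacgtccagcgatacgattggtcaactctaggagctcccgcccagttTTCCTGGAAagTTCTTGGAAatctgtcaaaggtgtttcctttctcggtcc

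The Socs3 window held 1 STAT match, at bases -154 to -146 from the start site. The Cish window held 2, at bases 1 to 9 and 12 to 20 after it. The Socs1 window held 2 matches to the interferon element that overlap each other, at bases -83 to -74 and -77 to -68. None of the 4 windows held TGANTCA, the AP-1 element, or TGACGTCA, the element of ATF and CREB factors, and the Socs4 window held none of the 4 motifs. Among 32851 RefSeq windows of the same length, 8.30% held the STAT letters, 3.44% the interferon letters, 7.81% the AP-1 letters and 1.79% the ATF and CREB letters. A match is a description of the letters and not a bound site. The RefSeq start sites of Socs3 and Cish lie inside the longer GENCODE gene models.

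Socs3 encodes the inhibitor that docks on gp130, the shared receptor chain of the interleukin-6 cytokines. Its level was 30.0 and 33.2 CPM (counts scaled to library size by the TMM method) with BMS-582949, against 11.2 and 9.51 CPM with DMSO. Both treated libraries lay well above both DMSO libraries. The log2 fold change was 1.61 ± 0.13 (SE, adjusted p = 3.1e-07), the largest in size of the 8 members. These values rest on 1356 and 1403 counts with BMS-582949, against 349 and 300 with DMSO. On GRCm38 (GENCODE M21) Socs3 (ENSMUSG00000053113) lies on chromosome 11 at 117966079 to 117970047.

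Socs1, the inhibitor best known for restraining interferon receptors, was at 1.99 and 2.46 CPM with BMS-582949, against 1.19 and 0.824 CPM with DMSO. The groups did not overlap, at counts of 90 and 104 with BMS-582949, against 37 and 26 with DMSO. The log2 fold change was 1.14 ± 0.36 (SE, adjusted p = 0.016). The call ended without BMS-582949 replicate 2 (0.96, adjusted p = 0.091) and without DMSO replicate 2 (0.90, adjusted p = 0.085). Socs1 (ENSMUSG00000038037) lies on chromosome 16 at 10782240 to 10785536.

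Socs2, which limits growth hormone receptor signalling in mice, was at 2.68 and 2.53 CPM with BMS-582949, against 6.14 and 6.31 CPM with DMSO. Replicates lay close together and the groups were far apart. The log2 fold change was -1.26 ± 0.21 (SE, adjusted p = 1.9e-04), from 121 and 107 counts with BMS-582949, against 191 and 199 with DMSO. It remained called under all alternatives run. Socs2 (ENSMUSG00000020027) lies on chromosome 10 at 95385362 to 95417180.

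Cish, the founding member and a classical STAT5 target, had 15 and 29 counts with BMS-582949, against 33 and 34 with DMSO. In CPM these were 0.332 and 0.685 with BMS-582949, against 1.06 and 1.08 with DMSO. Both treated libraries lay below both DMSO libraries but were unlike each other, and the log2 difference of -1.07 (SE 0.53) was not called (adjusted p = 0.097). Leaving out BMS-582949 replicate 1 gave -0.64, and leaving out replicate 2 of that group gave -1.70. Cish (ENSMUSG00000032578) lies on chromosome 9 at 107296026 to 107302784, and 11.5% of its exon bases are shared with the models Gm17040 and Gm17041 on the other strand. Whether counting used strand is not given in the sources used here, so reads of these models and of Cish cannot be told apart.

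**Figure D1:**
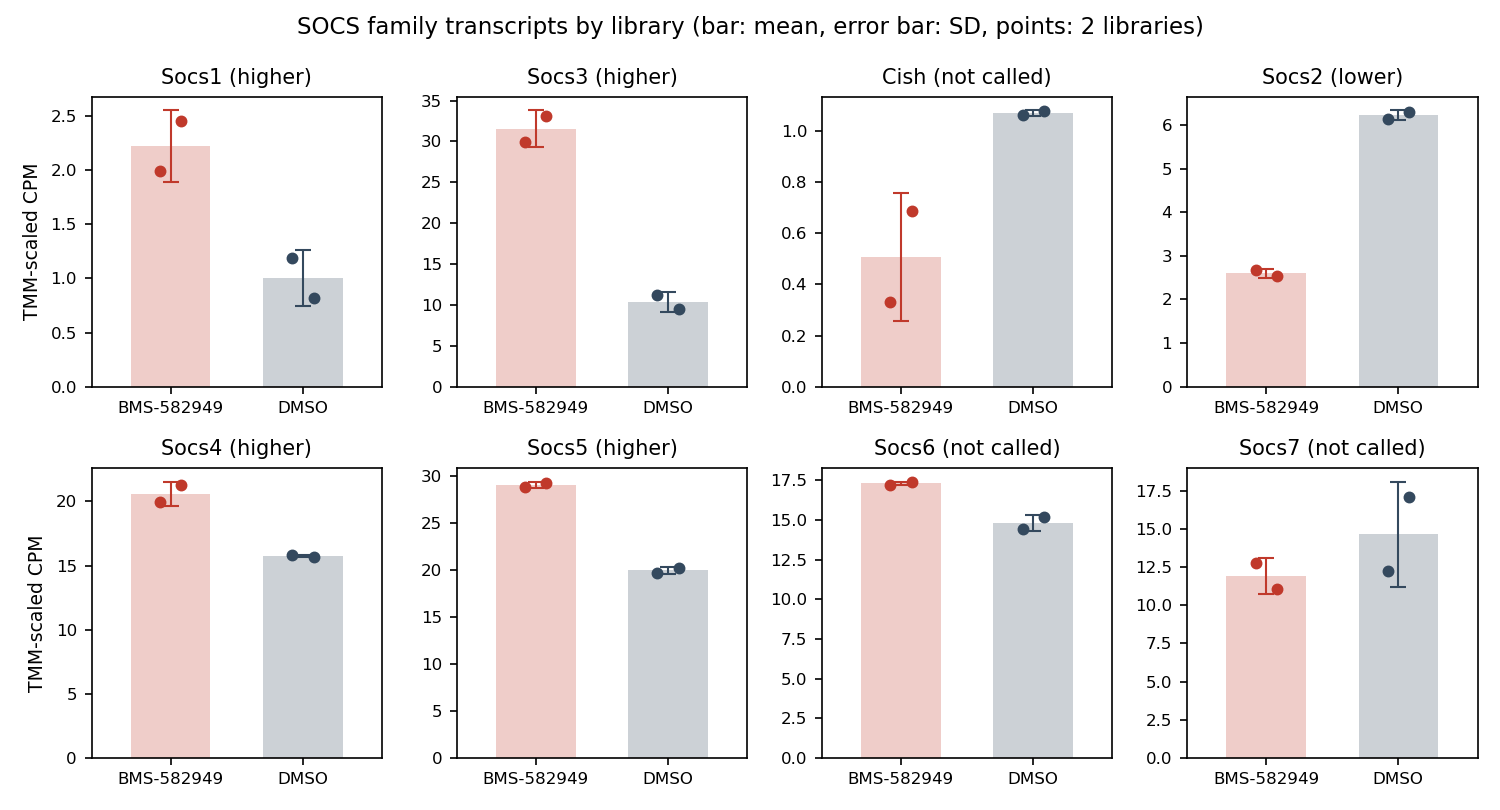
TMM-scaled CPM (vertical axes, each from 0) of the 8 family members in 2 BMS-582949 and 2 DMSO libraries, with bars for means, error bars for SD, points for libraries and the test's call in each title. Socs3 and Socs1 are higher and Socs2 is lower in both BMS-582949 libraries, Cish is lower without passing the test, and the groups overlap only for Socs7.

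The remaining members changed less. Socs5, an inhibitor linked to EGF receptor turnover and interleukin-4 signalling, was at 28.9 and 29.4 CPM with BMS-582949, against 19.7 and 20.3 CPM with DMSO, higher by 0.54 on the log2 scale (SE 0.11, adjusted p = 8.3e-04). Socs4, its closest relative in the family, was at 19.9 and 21.3 CPM with BMS-582949, against 15.8 and 15.7 CPM with DMSO (0.39 ± 0.11 SE, adjusted p = 0.0096). Both genes were higher in each treated library than in either DMSO library. The Socs4 call ended without BMS-582949 replicate 2 (0.32, adjusted p = 0.097).

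Socs6, which binds receptor tyrosine kinases such as KIT, was at 17.2 and 17.4 CPM with BMS-582949, against 14.4 and 15.2 CPM with DMSO. The groups did not overlap, yet the log2 change of 0.22 (SE 0.11) was not called (adjusted p = 0.10). It was called with upper-quartile scaling (0.28, adjusted p = 0.043) and with library size only (0.61, adjusted p = 5.5e-04). Socs7, which interacts with the adaptor NCK and with insulin receptor substrates, was at 12.8 and 11.1 CPM with BMS-582949, against 12.2 and 17.1 CPM with DMSO. It was the only member whose groups overlapped, and its value of -0.30 ± 0.16 (SE, adjusted p = 0.13) was -0.52 without DMSO replicate 1 (adjusted p = 0.0057), -0.035 without DMSO replicate 2 and 0.086 with library size only. Groups did not overlap for 7 of 8 members, against 80.2% of all genes tested.

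On the same build, Socs4 (ENSMUSG00000048379) lies on chromosome 14 at 47276931 to 47296102, Socs5 (ENSMUSG00000037104) on chromosome 17 at 87107679 to 87137839, Socs6 (ENSMUSG00000056153) on chromosome 18 at 88665224 to 88927481 and Socs7 (ENSMUSG00000038485) on chromosome 11 at 97362551 to 97398542. All 8 are protein-coding genes, and of these only Cish shares exon bases with another GENCODE model. Each value pools all exons and transcripts of a model.

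Across the members the median log2 fold change was 0.31, beside 0.03 over all genes tested. These sizes rest on the scaling. With library size only, the median of all genes was 0.41 and 51% of genes were called higher and 17% lower, while 5 members were called higher and 1 lower and the family median was 0.69. Calls higher made up 75.1% of all calls on that scale and 50.7% with TMM. The changes given here are relative to TMM. At an added minimum of 2-fold, Socs1 and Socs3 were called higher and Socs2 lower, where 9.94% of all genes passed as higher and 11.3% as lower.

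**Figure D2:**
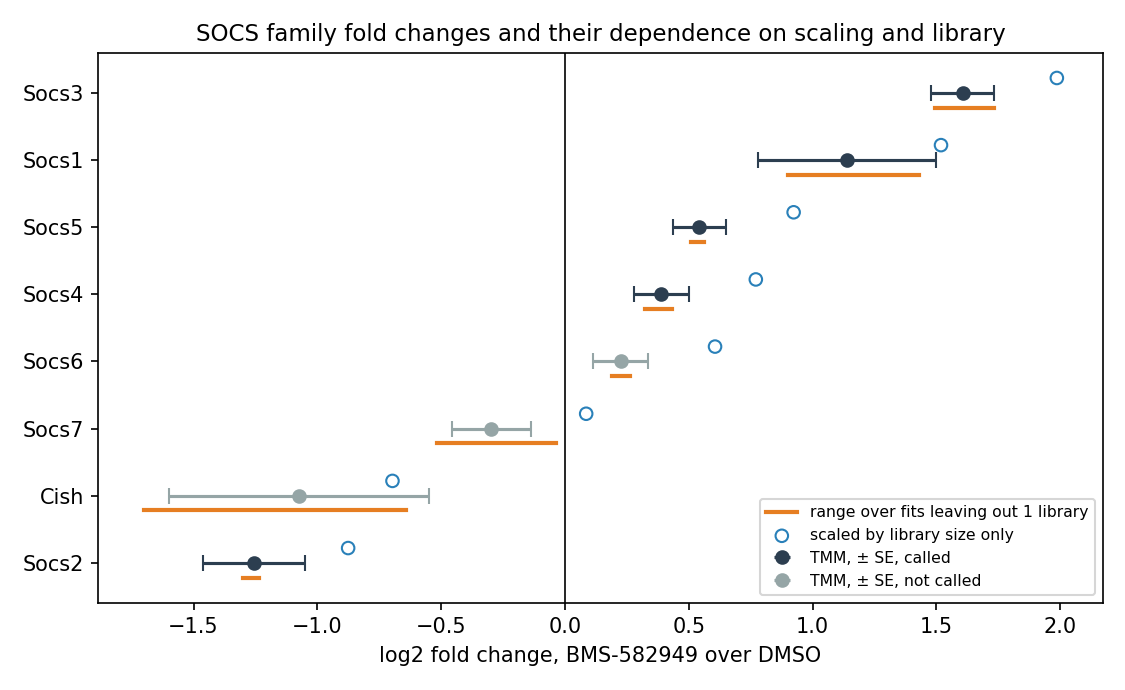
Log2 fold change, BMS-582949 over DMSO (horizontal axis), of each member with its SE (filled points), its value scaled by library size only (open circles) and its range over fits that leave out 1 library (bars). Socs3 at 1.61 and Socs2 at -1.26 keep their side of 0 throughout, while Socs7 lies at -0.30 with TMM and at 0.086 with library size only.

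Ratios of counts within a library do not depend on scaling between libraries. Socs3 had 11.2 and 13.1 counts for each count of Socs2 with BMS-582949, against 1.83 and 1.51 with DMSO. Socs1 had 6.00 and 3.59 counts for each count of Cish with BMS-582949, against 1.12 and 0.765 with DMSO. Relative to Socs5, Socs3 stood at 1.04 and 1.13 with BMS-582949, against 0.569 and 0.469 with DMSO. None of these ratios overlapped between groups. The pairs join members of unlike fold change, so the ratios restate those changes and are no separate support for them. An exact two-sided permutation test of 2 against 2 libraries cannot go below p = 0.333, so no p is given for them.

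Socs3 made up 26.4% of the family's counts (95% exact interval 25.2% to 27.6%) and 28.1% (26.9% to 29.4%) in the BMS-582949 libraries, against 13.7% (12.4% to 15.1%) and 11.1% (9.91% to 12.3%) in the DMSO libraries. Socs2 made up 2.35% and 2.14% with BMS-582949, against 7.51% and 7.34% with DMSO. The share of Socs5 was 25.4% and 24.9% with BMS-582949, against 24.1% and 23.6% with DMSO. Intervals cover counting error only. Summed over the 8 members, the family stood at 113.7 and 117.9 CPM with BMS-582949, against 81.8 and 85.9 CPM with DMSO.

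Levels of different members were compared per kilobase of merged exons. With BMS-582949 the order was Socs3 (10.9 ± 0.777 CPM per kilobase, SD, n = 2), Socs5 (4.54 ± 0.0552), Socs4 (3.00 ± 0.137), Socs7 (1.64 ± 0.163), Socs6 (1.53 ± 0.0107), Socs1 (0.765 ± 0.114), Socs2 (0.273 ± 0.0109) and Cish (0.0792 ± 0.0390). With DMSO it was Socs3 (3.59 ± 0.421), Socs5 (3.12 ± 0.0585), Socs4 (2.29 ± 0.0144), Socs7 (2.02 ± 0.473), Socs6 (1.31 ± 0.0459), Socs2 (0.653 ± 0.0120), Socs1 (0.346 ± 0.0891) and Cish (0.167 ± 0.00175). The sample values of Socs7 and Socs6 overlapped with BMS-582949, and those of Socs4 and Socs7 with DMSO. All other neighbours were separate in these libraries, and Socs1 and Socs2 stand in opposite order in the 2 groups.

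The order in the middle rests on the length used. Per kilobase of the longest transcript, Socs5 and Socs3 overlapped in DMSO (4.30 ± 0.0808 and 4.06 ± 0.477 CPM per kilobase), Socs6 came before Socs7 in both groups, and Socs3 was still the highest with BMS-582949 at 12.4 ± 0.881. The level of Socs3 per kilobase of merged exons was above that of 70.4% of 12614 genes with BMS-582949, against 46.8% with DMSO. For Cish these were 3.98% with BMS-582949 and 7.57% with DMSO.

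**Figure D3:**
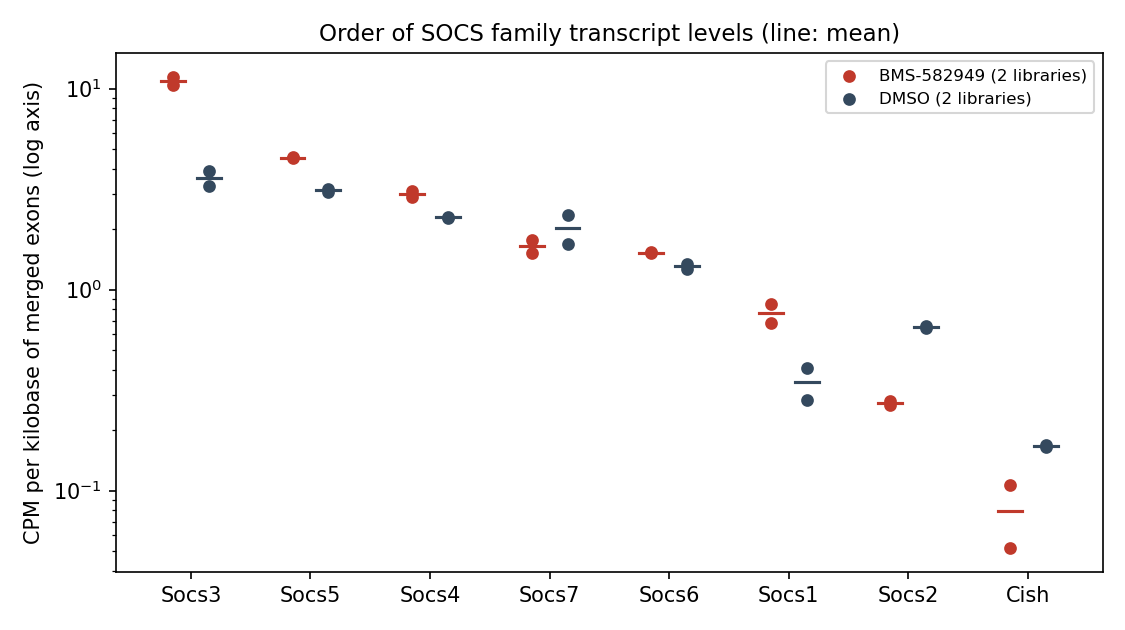
CPM per kilobase of merged exons (vertical log axis) of each member in 2 BMS-582949 and 2 DMSO libraries, with lines for means. Socs3 is at 10.9 with BMS-582949 and 3.59 with DMSO, and Socs1 and Socs2 swap places between the groups.

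These are bulk cultures, so a changed share of cells of a type and changed RNA per cell cannot be told apart. All 10 osteoclast markers fell, with sums of 12156 and 12315 CPM with BMS-582949, against 99133 and 103354 CPM with DMSO. Of 10 macrophage markers 6 rose and 2 fell. Their sums were close, at 11143 and 11919 CPM with BMS-582949, against 10574 and 10793 CPM with DMSO. Stromal markers summed to 496 and 493 CPM with BMS-582949, against 763 and 699 CPM with DMSO, and 5 of the 6 tested fell, or 2 with library size only. Neutrophil markers summed to 17.6 and 20.9 CPM with BMS-582949, against 28.0 and 27.7 CPM with DMSO, with 3 of 7 tested lower and Ly6g at 0. That 3 became 2 with library size only, 4 when BMS-582949 replicate 2 was left out and 1 when DMSO replicate 2 was. Dendritic cell markers summed to 16.9 CPM in each BMS-582949 library, against 27.6 and 33.9 CPM with DMSO, with 1 of 2 tested lower (2 of 4 tested without BMS-582949 replicate 1) and Siglech at 0. Markers of T and NK cells, B cells, mast cells and erythroid cells summed to at most 3.21 CPM in any library, and Cd3e, Cd3g and Cd8a had no count. The part of these shifts in the SOCS values was not tested. Libraries held 39255925 and 37455168 counts with BMS-582949, against 35331889 and 36178333 with DMSO.

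Few of the ligands that switch on SOCS genes had counts enough to test. Of 27 cytokine genes whose receptors use JAK and STAT, 20 had too few counts to test and 11 of these had none in any library, Ifng and Csf2 among them. Il6, the classical inducer of Socs3, had 2 counts in 1 DMSO library and none in the other 3 libraries. Of the 7 tested, 2 rose and 2 fell (median -0.19, and 0.19 with library size only, where 2 rose and 1 fell). Here and in the lists below, such counts are read beside the shares of all genes tested. Those were 30.5% called higher and 29.7% lower with TMM, and 51% and 17% with library size only. No test was run over any list.

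Lif, an interleukin-6 family cytokine that also signals through gp130, was at 5.33 and 4.75 CPM with BMS-582949, against 58.6 and 69.6 CPM with DMSO (log2 fold change -3.67, adjusted p = 2.8e-10). Ebi3, a subunit of interleukin-27, was at 11.6 and 15.0 CPM with BMS-582949, against 5.66 and 4.53 CPM with DMSO (1.38, adjusted p = 2.2e-05), and 23.4% of its exon bases are shared with an antisense model. Il15 rose by 0.70. Lif was lower in the libraries in which Socs3 was higher.

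The receptors on which SOCS proteins act moved both ways, with 10 of 28 tested higher and 9 lower (median 0.25), or 16 and 4 with library size only (median 0.63). With TMM these were 35.7% and 32.1%, near the 30.5% and 29.7% of all genes tested. Il6st, which encodes gp130, the docking site of SOCS3, was at 52.4 and 42.4 CPM with BMS-582949, against 43.3 CPM in each DMSO library, and was not called (0.13, adjusted p = 0.28). Ifngr1, the interferon gamma receptor chain whose signalling SOCS1 restrains, was at 179.7 and 189.7 CPM with BMS-582949, against 69.8 and 77.0 CPM with DMSO (1.33, adjusted p = 6.9e-09). Ifngr2, the other chain of that receptor, was at 184.6 and 174.0 CPM with BMS-582949, against 233.5 and 238.8 CPM with DMSO (-0.40, adjusted p = 1.2e-04), and was not called with library size only (-0.015). Il6st was called higher with library size only (0.51) and without BMS-582949 replicate 2 (0.25).

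Il2rg, the common gamma chain, was at 331 and 367 CPM with BMS-582949, against 109.2 and 112.0 CPM with DMSO (1.66, adjusted p = 9.9e-10), and Il10ra and Il21r changed by 1.41 and 1.55. The DMSO libraries of Il21r were far apart, at 2.51 and 5.70 CPM, and its value was 2.27 without DMSO replicate 2 and 1.08 without DMSO replicate 1. Ghr, the growth hormone receptor that SOCS2 restrains, was at 7.72 and 7.56 CPM with BMS-582949, against 24.1 and 22.8 CPM with DMSO (-1.62, adjusted p = 1.2e-07). Ghr and Socs2 were both lower in both treated libraries. Exons of Il2rg are shared with another model over 30.5% of their bases.

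Among JAK kinases and STAT factors, 6 of 10 tested rose and none fell (median 0.34), and all 10 rose with library size only (median 0.72). The number called higher depended on the library left out. The median was 0.28 without DMSO replicate 1 and 0.41 without DMSO replicate 2. Of all genes tested, 30.5% rose and 29.7% fell with TMM, and 51% rose with library size only. Jak2, among the kinases that SOCS1 and SOCS3 inhibit, was at 17.3 and 15.4 CPM with BMS-582949, against 8.72 and 9.54 CPM with DMSO (0.84, adjusted p = 1.1e-04). Jak1 and Tyk2, kinases that they also inhibit, were not called (0.15, adjusted p = 0.11, and -0.067, adjusted p = 0.49). Jak1 was called higher without DMSO replicate 2 (0.24). Stat2 rose by 0.99, Stat5b by 0.65 and Stat6 by 0.47. Stat3, the factor that gp130 activates, was at 59.5 and 55.3 CPM with BMS-582949, against 54.3 and 60.2 CPM with DMSO, with overlapping groups (0.0025, adjusted p = 0.98). Jak1, Tyk2 and Stat3 were called higher with library size only (0.53, 0.31 and 0.38).

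The members' relation to other targets of the same factors differed from list to list. Of 8 STAT5 targets outside the family, 5 rose and none fell (median 0.62, and 7 rose with library size only). Of these targets, 1, Bcl2l1, was called lower with DESeq2 size factors, with at least 1 CPM in 2 samples and with limma-voom. Its value was -0.29 with TMM, not called, and -0.43 without BMS-582949 replicate 2. In the family, Socs2 fell and Cish was not called, while Socs1, Socs3, Socs4 and Socs5 rose. Which members are STAT5 targets in these cultures was not tested. The kinase gene Pim1 was at 11.6 and 10.6 CPM with BMS-582949, against 3.67 and 4.98 CPM with DMSO (1.36, adjusted p = 3.2e-05), and Gadd45g, a growth arrest gene, changed by 1.17. The transcription regulators Bcl6 and Id1 rose by 0.86 and 0.66.

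Of 12 STAT3 targets outside the family, 5 rose and 4 fell (median 0.17), or 7 and 2 with library size only. Il21r, also among the receptors, changed by 1.55. Bcl3, a nuclear IκB protein gene, and the receptor gene Il4ra rose by 0.66 each, and the angiogenic factor gene Vegfa fell by 1.40. The list moved in both directions, while Socs3 rose.

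Of 7 tested STAT6 targets, 3 rose and 3 fell (median -0.25, and 0.13 with library size only, where 2 fell). The mannose receptor gene Mrc1 changed by 1.57, the transcription factor gene Klf4 by 1.58, the lectin gene Clec10a by 1.34 and the transglutaminase gene Tgm2 by -1.74. Exon bases are shared with another model for 21.8% of Tgm2 and 14.5% of Pim1.

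The list for the ubiquitin ligase through which SOCS proteins act also holds genes of NEDD8 conjugation and of other cullin partners. Its 9 genes changed by between -0.55 and 0.19 on the log2 scale. With TMM, 5 were called lower and none higher (median -0.22). Among Elob, Eloc, Cul5 and Rnf7, only Elob was called lower. With library size only, 5 were called higher and 1 lower (median 0.16), so the direction rests on scaling. Elob, which encodes the elongin B that binds the SOCS box, was at 122.2 and 127.1 CPM with BMS-582949, against 149.1 and 141.3 CPM with DMSO (-0.22, adjusted p = 0.0088). Elob changed by -0.18 without DMSO replicate 1, and it was called higher with library size only (0.16). Eloc, which encodes elongin C, and Rnf7 were not called (0.13, adjusted p = 0.27, and -0.13, adjusted p = 0.10). Both Eloc and Rnf7 were called higher with library size only, Eloc at 0.51. Cul5, the cullin scaffold of SOCS ligases, averaged 22.3 ± 1.97 CPM with BMS-582949 and 22.3 ± 0.486 CPM with DMSO (SD, n = 2 each), and was not called by edgeR (adjusted p = 1). With TMM, Ube2f, the NEDD8-conjugating enzyme for cullin 5, fell by 0.55, the cullin partner Arih2 by 0.42, Nedd8 by 0.33 and Rbx1 by 0.30. With library size only, Arih2, Nedd8 and Rbx1 were not called (-0.035, 0.056 and 0.082) and Cul5 was called higher (0.38). Exon bases of Nedd8 are shared with another model over 14.6%.

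Other genes with a SOCS box were lower more often than higher, with 9 of 17 tested called lower and 3 higher (median -0.31), or 4 and 4 with library size only (median 0.06). A further 9 of the 26 listed were too low to test. Fewer were called lower without BMS-582949 replicate 1, DMSO replicate 1 or DMSO replicate 2 (medians -0.27, -0.28 and -0.28). Wsb2, a WD-repeat protein gene, was at 173.8 and 180.7 CPM with BMS-582949, against 402 and 411 CPM with DMSO (-1.20, adjusted p = 5.4e-09). Its relative Wsb1 was at 62.5 and 59.3 CPM with BMS-582949, against 32.4 and 29.7 CPM with DMSO (0.97, adjusted p = 6.2e-07). Spsb1, a SPRY-domain member that targets inducible nitric oxide synthase, changed by -0.90 and Rab40c by -0.49, and Rab40c was not called with library size only (-0.11). Asb11 had no count in either BMS-582949 library, and the median was the same with it at the bound that 3 counts over the group allow.

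Other brakes on JAK and STAT signalling also moved both ways, with 8 of 14 higher and 3 lower (median 0.30), or 10 and 3 with library size only. The 8 became 5 without BMS-582949 replicate 2. Ptpn1, a phosphatase of JAK2 and TYK2, was at 126.5 and 114.0 CPM with BMS-582949, against 295 and 315 CPM with DMSO (-1.34, adjusted p = 6.9e-09), the opposite direction to Socs3 and Socs1. With TMM, the phosphatase genes Ptpn2, Ptpn6 and Ptprc of the same list were called higher (0.35, 0.38 and 0.42). Ptpn11 was not called (-0.11, adjusted p = 0.29). The ubiquitin ligase gene Cblb changed by -1.65, its relative Cbl by 0.73 and the phosphatase gene Dusp3 by -1.27. Exon bases of Dusp3 are shared with another model over 12.9%.

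Of 17 tested receptor kinase and adaptor targets of SOCS proteins, 2 rose and 6 fell (median -0.16), or 8 and 4 with library size only (median 0.22). With TMM the share lower was 35.3%, against 29.7% of all genes tested, and the share higher 11.8%, against 30.5%. Egfr, a target of SOCS4 and SOCS5, was at 5.66 and 5.29 CPM with BMS-582949, against 9.75 and 12.0 CPM with DMSO (-0.99, adjusted p = 1.9e-04). Egfr was lower in the libraries in which Socs4 and Socs5 were higher. With TMM, Kit was called lower at 9 to 35 counts a library (-1.54, adjusted p = 0.042). Irs1 and Irs2 were not called (-1.26, adjusted p = 0.16, and 0.41, adjusted p = 0.12). Csf1r, the M-CSF receptor, and Met, the hepatocyte growth factor receptor, changed by -1.16 and -1.52, and Ptk2, which encodes focal adhesion kinase, by 1.42. Of the NCK adaptor genes, Nck2 rose by 0.51 (adjusted p = 0.0028) and Nck1 was not called (0.11, adjusted p = 0.42), though it was called higher with library size only (0.49). Exon bases of Csf1r are shared with another model over 15.1%.

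**Figure D4:**
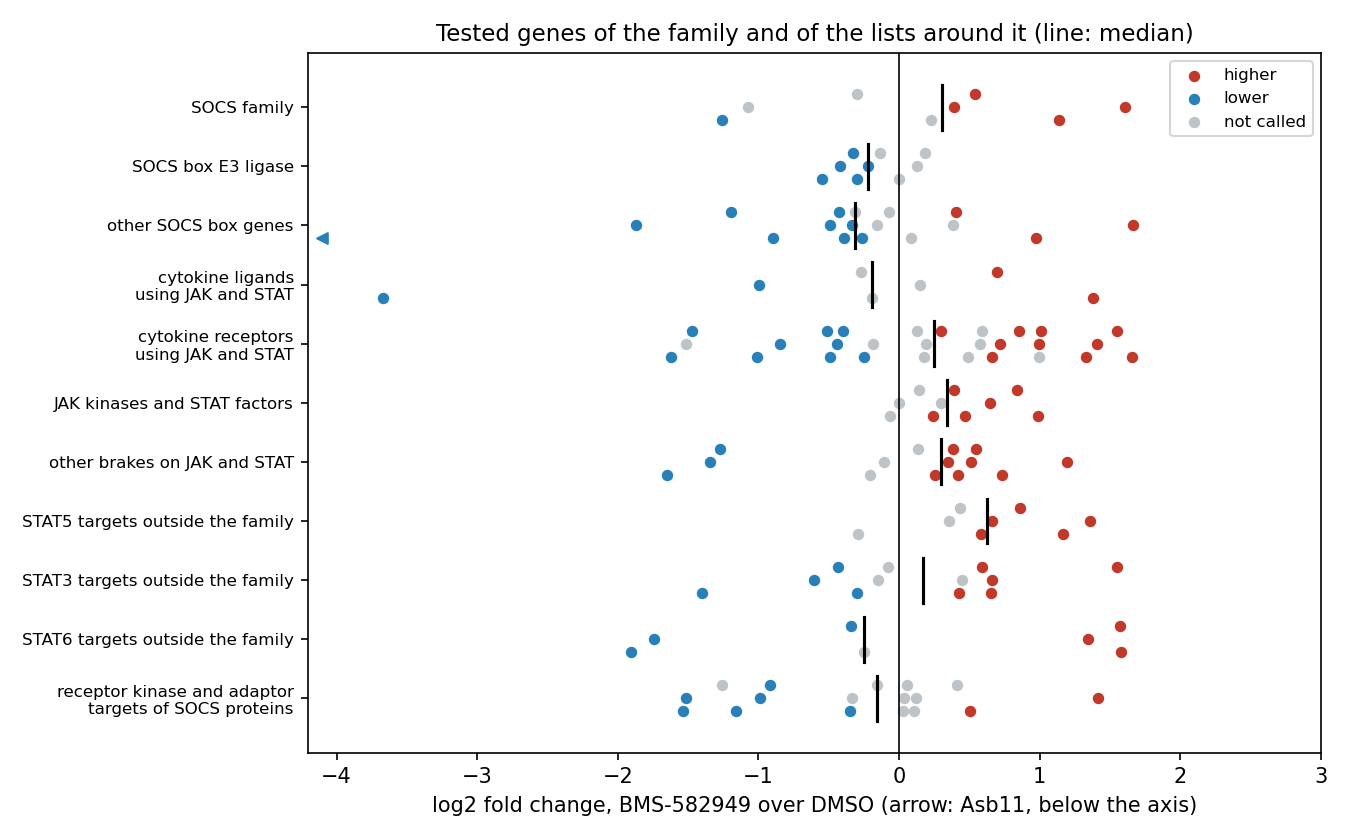
Log2 fold change, BMS-582949 over DMSO (horizontal axis), of each tested gene of the family and of 10 lists of genes around it, coloured by call, with a line at each list's median. The family median is 0.31 with members on both sides of 0, and the STAT5 targets outside the family have a median of 0.62. The genes listed with the ligase lie between -0.55 and 0.19. Of these 9, 5 are called lower here and 5 are called higher with library size only. The arrow marks Asb11, with no count in BMS-582949, beyond the axis.

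By closeness of log2 CPM centred on each gene's mean over the 4 libraries, the genes most like Socs5, the called member with the highest mean CPM among those higher, were Nrip1, Trim27 and Otulinl, at root mean square distances of 0.0085, 0.0092 and 0.0093. Those most like Socs2, the member called lower, included Tgoln1 and Snx8, at 0.016 and 0.017. Over only 4 libraries such closeness describes genes of nearly equal fold change.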

How the data were processed

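The deposited table gives raw counts for each gene model (whole numbers whose sums differ between columns). Tools named in the submitters' processing notes are Trimmomatic 0.36, HISAT2 2.0.4 and, for DESeq2, version 1.30.1, with build GRCm38. Counting tool, annotation and strand use were not given in the sources used here. Titles of the treated libraries transpose digits of the compound's name, so the treatment label set the groups.

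The quasi-likelihood F test of edgeR 4.0.16 (R 4.3.3) compared BMS-582949 with DMSO without covariates, on 13214 genes kept by filterByExpr at its minimum count of 10, with TMM scaling and 2 residual degrees of freedom. Benjamini-Hochberg adjustment ran over all of them, and 0.05 was the threshold for a call. CPM uses TMM-scaled library sizes, and the SE is the absolute log2 fold change over the square root of F. Log2 values subtract DMSO from BMS-582949. Symbols and exon lengths are those of GENCODE M21, which may not be the authors' annotation. Counts of replicates varied more than sampling alone gives (chi-square over its degrees of freedom was 14.3 in BMS-582949 and 10.0 in DMSO). Each library was taken as a sample, though such variation does not show that libraries came from different mice or dishes. The fit was tested on simulated data with few changed genes, as many up as down, which cannot test the choice of scaling.

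The members and lists were chosen with earlier results of these data known. Named are all 8 members and up to 4 called genes per list with the largest change and a mean CPM of at least 5. Some list genes with a physical or enzymatic link to a member are also named, and others are not. Ifngr2, Nck2, Eloc and Rnf7, partners of named genes, were added after their values were seen. So were Ptpn2, Ptpn6, Ptprc, Ptpn11, Bcl2l1, Kit, Irs1 and Irs2, from the same lists as named genes. Predicted gene models were left out of the genes most like a member. Some items are not reported here. Alternatives were upper-quartile scaling, DESeq2 size factors, no scaling beyond library size, no filter on low counts, at least 1 CPM in 2 samples, DESeq2 1.42.0, limma-voom (limma 3.58.1), a replicate block, each library left out, an absolute log2 fold change of at least 1 and, for levels, the longest transcript.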

Additional observations from a re-analysis of the deposited data

How the results depend on the processing

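Of 95 values for the members under 12 alternative fits, 88 kept their direction and their side of the threshold, 3 were no longer called (Socs1 without BMS-582949 replicate 2 or DMSO replicate 2, Socs4 without BMS-582949 replicate 2), 3 became called (Socs6 with upper-quartile scaling and library size only, Socs7 without DMSO replicate 1) and 1 changed sign, Socs7 at 0.086 with library size only. Cish was not tested with at least 1 CPM in 2 samples. Members called higher numbered 2 to 4 and members called lower 1 to 2 over the fits that leave out 1 library, in which the lone sample of a group is assumed to vary like the other group. At a minimum absolute log2 fold change of 1 they were 2 and 1. Over all genes, 4035 were called higher and 3919 lower, against 6738 and 2240 with library size only, where the median log2 fold change was 0.41, and 1314 and 1499 at that minimum. The cause of these shifts was not tested. The labels state no pairing, so the replicate numbers were not taken as pairs. Deviations from group means correlated at -0.078 between libraries of the same number. With 2 libraries a group, the opposite pairing gives the same size with the other sign, so this value does not decide on pairing. With a replicate block, 3923 genes were called higher and 3830 lower, and 4 members higher and 1 lower. Depth limits Socs1 and Cish most, at 26 to 104 and 15 to 34 counts a library.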
